A study of Mus musculus with 24 samples.

Results

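Immediate early genes are transcribed within minutes of a signal, without new protein synthesis, and many of them encode transcription factors. A set of 10 immediate early and AP-1 genes, chosen by name, was followed here in macrophages. The AP-1 genes were Fos, Fosl1, Fosl2, Jun, Junb and Jund. The others were the zinc finger factors Egr1 and Egr2, the survival gene Ier3 and the growth regulator Myc. All 10 were among the 22165 genes of the count table, matched by Ensembl identifier to the mouse annotation GENCODE M21, and all 10 passed the filter on low counts that kept 11878 genes for testing.

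The cells were bone marrow-derived macrophages (BMDMs), grown for 7 days with 20 ng/ml of M-CSF, the growth factor that drives marrow precursors into macrophages, from mice aged 8 to 20 weeks per the labels. WT BMDMs came from C57BL/6N mice and Irg1-/- BMDMs from mice without Irg1 (listed as Acod1), the enzyme that makes itaconate. Within each genotype, cells were left unstimulated, were given 100 ng/ml of LPS, a component of the outer membrane of Gram-negative bacteria, for 24 h and harvested at once (LPS 24h), or were given the 24 h dose, fresh medium, a rest of 1 h and a further 3 h of LPS (LPS 24h->LPS 3h, here called tolerized). The LPS 3h cells were handled as the tolerized ones, with the medium change and rest, but without the first dose. Tolerized cells therefore differed from LPS 24h cells by the new LPS and also by the fresh medium and the rest, and these cannot be told apart. LPS 3h cells likewise differed from unstimulated cells, for which no rest is listed, by more than the LPS. The LPS, the medium change and the rest cannot be told apart there either. Each of the 8 groups held 3 independent cultures, 24 libraries in all; the sources used here do not tie a culture to an animal, so the p-values measure the spread between cultures.

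The protocol reads the 3′ ends of polyadenylated RNA, and 3927378 to 20430359 reads per library were counted on genes. The labels carry 4 prefixes, read here as library pools, although the labels do not state this. Every mention of a pool rests on that reading. All unstimulated cultures were in pool 4, the 3 WT cultures of each LPS treatment were in pools 1, 2 and 4, and no LPS-treated Irg1-/- culture was in pool 4, so that in Irg1-/- cells LPS and pool cannot be told apart. Acod1 had 15643 to 28063 CPM (counts scaled to the size of each library) in WT cells after LPS 3h and 1.58 to 26.4 in Irg1-/- cells. The 8 macrophage markers checked were found in every library, with a summed level of 3319 to 9833 CPM, while the markers of T and NK cells, B cells and red cells summed to at most 1.70, 1.51 and 0.585 CPM. The markers of fibroblasts (3 collagen genes and Pdgfra) summed to 61.5 to 392 CPM, those of neutrophils to 1.05 to 125 CPM and those of dendritic cells to at most 9.99 CPM. The WT LPS 24h culture 3 stood apart: 33.7% of its reads fell on no gene, the highest share of any library, and its macrophage markers summed to 3319 CPM, the lowest of any library.

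AP-1 is a dimer, formed among these members by a Jun family protein with a Fos family protein or another Jun protein. It binds short DNA sites in the promoters and enhancers of cytokine, protease and cell cycle genes. In macrophages, Toll-like receptor 4, the receptor for LPS, turns on MAP kinases and NF-kappaB, which act on these genes. Fos and Egr1 are classical early genes whose RNA peaks and decays quickly, so a sample taken at 3 h shows the level after the first wave. Myc drives growth and ribosome production, and Egr1 and Egr2 act with co-repressors of the Nab family.

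Sequences before the transcription start are shown for 3 members, since Junb and Ier3 had the largest rise after LPS 3h and Fos, the founding member of the family, did not pass the test there. They are from RefSeq, build GRCm38.p6, in lower case, with matches to the motifs searched in capitals. Junb lies on the minus strand, Fos and Ier3 on the plus strand, and the Ier3 run stops where the GENCODE gene begins.
Junb, chr8:84978749-84978998: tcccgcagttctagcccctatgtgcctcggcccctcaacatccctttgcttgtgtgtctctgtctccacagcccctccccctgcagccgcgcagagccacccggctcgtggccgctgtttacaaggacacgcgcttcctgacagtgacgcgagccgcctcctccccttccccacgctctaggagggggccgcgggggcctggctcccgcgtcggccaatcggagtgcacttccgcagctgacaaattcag
Ier3, chr17:35821463-35821683: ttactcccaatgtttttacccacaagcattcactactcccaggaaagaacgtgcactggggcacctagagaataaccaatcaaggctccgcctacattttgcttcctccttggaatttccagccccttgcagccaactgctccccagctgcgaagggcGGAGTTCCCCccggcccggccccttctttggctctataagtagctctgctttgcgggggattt
Fos, chr12:85473640-85473889: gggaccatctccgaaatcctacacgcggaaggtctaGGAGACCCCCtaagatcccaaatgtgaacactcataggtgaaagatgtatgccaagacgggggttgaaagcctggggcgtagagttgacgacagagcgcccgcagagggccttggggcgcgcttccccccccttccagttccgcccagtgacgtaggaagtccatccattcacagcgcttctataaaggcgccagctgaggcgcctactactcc

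Promoter windows of 250 bases were used for 7 of the 10 members, the first RefSeq window listed for each. Fosl1 and Myc had no entry, and Egr1 was left out. In these windows 7 motifs were searched on both strands: the AP-1 site TGANTCA, the cAMP response element TGACGTCA, the Egr site GCGTGGGCG, the E-box CACGTG, the STAT site TTCNNNGAA, and the NF-kappaB site and the serum response CArG box by name. An NF-kappaB match was found in 4 of the 7 windows (Fos, Fosl2, Egr2 and Ier3), against 7.25% of 32851 mouse windows of this length. The windows were set by RefSeq starts. The Fosl2 window, from base 32136222, lay inside the GENCODE gene, which begins at 32135801. The Jund window ended at 70697738, before the GENCODE start at 70698949. In the Ier3 window it lay 92 to 83 bases before the RefSeq start, which lies past the end of the run printed above. In the Fos window it lay 214 to 205 bases before the RefSeq start. The Egr2 window also held the E-box, which 6.02% of windows hold. No other motif of the 7 was matched, and the Junb window held none of these letters.

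The first comparison asked how the 10 genes stood after 3 h of LPS in cells that had not met LPS before. The medium change and rest of these cells are part of the difference from unstimulated cells. Fosl2, Junb, Egr1 and Ier3 rose in WT cells and Fosl2, Junb and Ier3 rose in Irg1-/- cells, with Junb and Ier3 moving the most in both. In WT cells 4 of 10 members rose, where 15.8% of the genes tested did and 16.3% fell. In Irg1-/- cells 3 of 10 rose, where 17.0% of the genes tested did and 18.9% fell. The median log2 fold change of the 10 was 0.36 in WT and 0.25 in Irg1-/- cells, beside -0.18 and -0.20 over all genes tested.

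**Figure D1:**
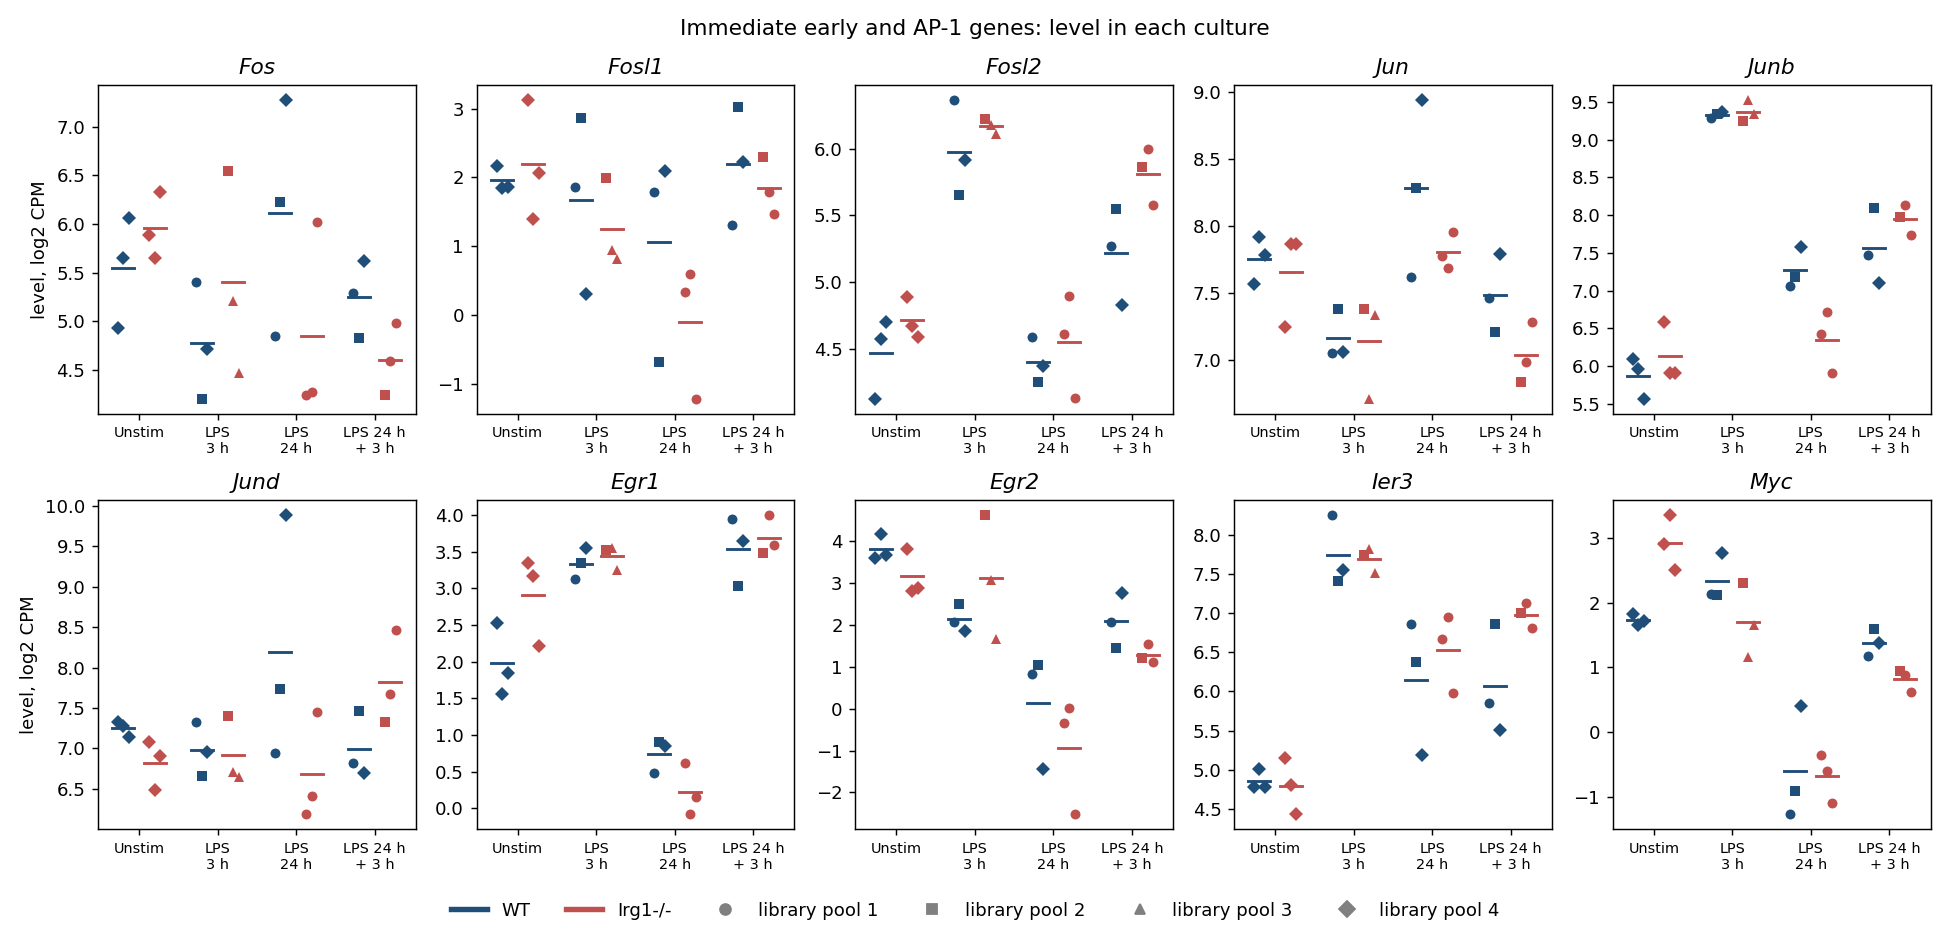
Level of each of the 10 genes in the 24 cultures, in log2 CPM (y axis, on a separate scale for each gene) by treatment (x axis), with WT in blue and Irg1-/- in red. Each point is 1 culture, its shape gives the library pool, and each bar is the mean of 3 cultures. Junb and Ier3 stood above every unstimulated culture after LPS 3h in both genotypes, and Egr1 and Myc were lowest after LPS 24h.

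Junb encodes a Jun family protein that can pair with Fos proteins and also restrains the activity of c-Jun. Junb was at 68.1, 62.3 and 47.4 CPM in the unstimulated WT cultures and at 622, 647 and 662 CPM after LPS 3h. Junb in Irg1-/- cells was at 96.3, 60.1 and 59.8 CPM unstimulated and at 606, 737 and 648 CPM after LPS 3h. All 6 LPS 3h cultures lay far above all unstimulated ones, and the 3 WT cultures were close to each other. Junb rose 10.9-fold in WT (log2 fold change 3.44 ± 0.31 SE, adjusted p = 2.21e-10 by the quasi-likelihood test of edgeR, adjusted over all genes tested after Benjamini and Hochberg) and 9.21-fold in Irg1-/- cells (3.20 ± 0.31, adjusted p = 8.71e-10 by edgeR). Within pool 4, which held the third WT LPS 3h culture and all 3 unstimulated ones, the log2 difference was 3.49. The 3′ end of Junb overlaps the last exon of Prdx2 on the other strand, and the strand setting of the counting is not given in the sources used here, so Junb reads are uncertain to that extent. The log2 fold change of Prdx2 in the same comparison was -0.33 in WT (adjusted p = 0.350 by edgeR).

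Ier3 encodes a small stress-inducible protein that modulates survival and NF-kappaB and ERK signalling. Its unstimulated WT cultures were at 27.4, 32.2 and 27.2 CPM, and its LPS 3h cultures at 304, 170.1 and 187 CPM. The Irg1-/- cultures went from 35.2, 27.7 and 21.5 CPM to 213, 225 and 182 CPM. No LPS 3h culture overlapped with an unstimulated one, and the first WT culture was the highest of the 6. Ier3 rose 7.61-fold in WT (log2 2.93 ± 0.39, adjusted p = 3.24e-07 by edgeR) and 7.37-fold in Irg1-/- cells (2.88 ± 0.39, adjusted p = 4.70e-07 by edgeR). Beside the pool 4 difference of 2.69 in WT, no Irg1-/- culture of this comparison shared a pool.

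Fosl2 encodes Fra-2, a Fos family protein without the strong activation domain of c-Fos. It went from 17.3, 23.7 and 25.8 CPM to 82.4, 50.1 and 60.1 CPM in WT cells. The Irg1-/- cultures went from 29.5, 25.3 and 23.9 CPM to 74.6, 72.3 and 68.9 CPM. The groups did not overlap in either genotype, and the spread was smaller in the Irg1-/- LPS 3h cultures than in the WT ones. The rise was 2.88-fold in WT (log2 1.53 ± 0.29, adjusted p = 1.00e-04 by edgeR) and 2.75-fold in Irg1-/- cells (1.46 ± 0.29, adjusted p = 1.80e-04 by edgeR).

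Egr1, the zinc finger factor of the first wave, was at 5.60, 2.77 and 3.41 CPM in the unstimulated WT cultures and at 8.57, 9.96 and 11.5 CPM after LPS 3h, so that the WT groups did not overlap. It rose 2.54-fold in WT (log2 1.34 ± 0.41, adjusted p = 0.0111 by edgeR), but without the unstimulated WT culture 2 the value was 1.19 with an adjusted p of 0.0536. The unstimulated Irg1-/- cultures, at 9.97, 8.86 and 4.44 CPM, overlapped with the LPS 3h ones, at 11.3, 11.6 and 9.32 CPM. The Irg1-/- difference was 0.49 ± 0.40 (adjusted p = 0.372 by edgeR), and the difference between genotypes in this response was -0.86 ± 0.57 (adjusted p = 0.957 by edgeR), so a genotype effect on the Egr1 rise was not shown.

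The other members did not pass the test after LPS 3h. Fos, which encodes c-Fos, was at 30.3 to 66.7 CPM unstimulated and 18.3 to 42.1 CPM after LPS 3h in WT cells, and at 50.1 to 80.6 and 22.0 to 93.2 CPM in Irg1-/- cells. Jun, which encodes c-Jun, was lower in all 3 LPS 3h cultures of WT (132.9 to 166.9 CPM, beside 189.9 to 241 CPM), at a log2 fold change of -0.59 ± 0.30 (adjusted p = 0.133 by edgeR). Egr2, a zinc finger factor of myeloid differentiation, was at 11.9, 17.9 and 12.6 CPM unstimulated and 4.01, 5.45 and 3.44 CPM after LPS 3h in WT cells. Those Egr2 groups did not overlap, at -1.70 ± 0.69 (adjusted p = 0.0567 by edgeR). Of 8 alternatives 5 called Egr2 lower, with adjusted p-values down to 0.00250, and 0 of the 6 edgeR fits that left out 1 culture did. Myc was at 2.96 to 3.35 CPM unstimulated and 4.15 to 6.62 CPM after LPS 3h in WT cells, without overlap (0.67 ± 0.57, adjusted p = 0.403 by edgeR). In Irg1-/- cells Myc was at 5.51 to 9.99 CPM unstimulated and 2.06 to 4.74 CPM after LPS 3h, apart on the other side (-1.20 ± 0.57, adjusted p = 0.104 by edgeR). Fosl1 and Jund overlapped between the groups in both genotypes.

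The scale of these values rests on the normalization. When libraries were scaled by their totals alone, the median log2 fold change of all genes after LPS 3h moved from -0.18 to -1.10 in WT and from -0.20 to -1.12 in Irg1-/- cells, and the higher share of called genes moved from 49.3% to 15.2% in WT and from 47.4% to 15.6% in Irg1-/- cells. Relative to the median of all genes, Junb stood at 3.62 under both scalings in WT, Ier3 at 3.11, Fosl2 at 1.70 and Egr1 at 1.52. With library totals, Fosl2 and Egr1 were no longer past the threshold in WT (0.60, adjusted p = 0.0842, and 0.42, adjusted p = 0.394 by edgeR), nor was Fosl2 in Irg1-/- cells (0.53, adjusted p = 0.128), while Jun was lower in both (-1.52 and -1.45). Fos was then also called lower, at -1.70 (adjusted p = 0.00575 by edgeR) in WT and -1.23 (0.0357) in Irg1-/- cells, as were Jund (-1.17, 0.0277) and Egr2 (-2.63, 0.00250) in WT and Fosl1 (-1.98, 0.0256) and Myc (-2.14, 0.00322) in Irg1-/- cells. These calls were absent with TMM factors. Relative to the all-gene median with library totals, WT Fos stood at -0.59, Jun at -0.41, Jund at -0.06 and Egr2 at -1.53. In Irg1-/- cells Fos stood at -0.11, Jun at -0.33, Fosl1 at -0.86 and Myc at -1.02.

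**Figure D2:**
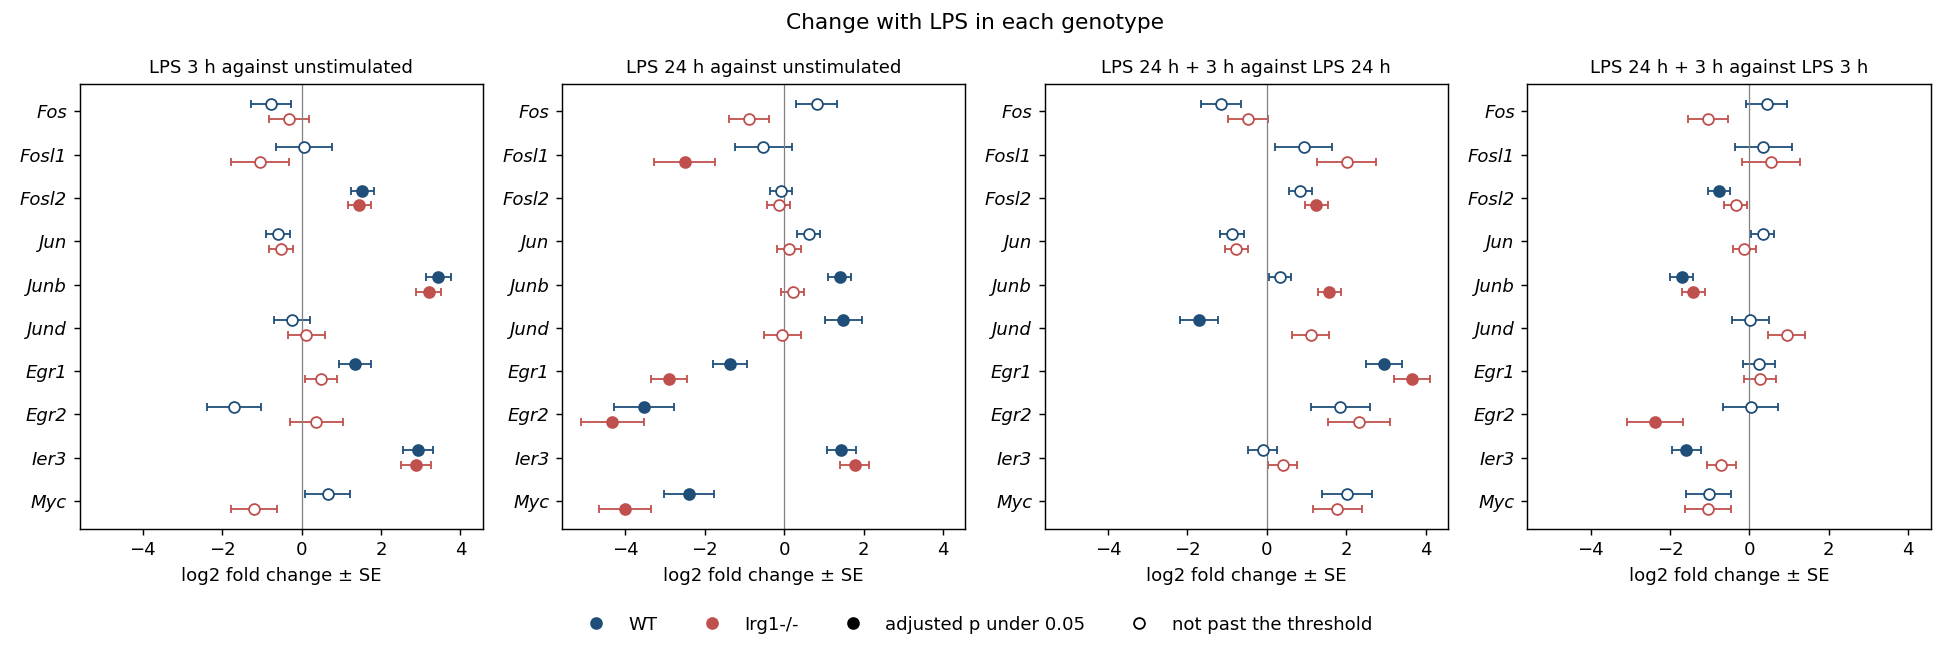
Log2 fold change (x axis, with its standard error) of each gene (y axis) in the 4 treatment comparisons, with WT in blue and Irg1-/- in red and filled points past an adjusted p of 0.05. Junb, Ier3 and Fosl2 lie to the right after LPS 3h in both genotypes, Egr2 and Myc to the left after LPS 24h, and Egr1 to the right on restimulation.

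The next comparison set LPS 24h against unstimulated cells. Ier3 remained above the unstimulated level in both genotypes while Egr1, Egr2 and Myc fell in both. In WT cells 3 of 10 members were higher, where 9.25% of the genes tested were, and 3 were lower, where 6.98% were. In Irg1-/- cells 1 of 10 was higher, where 7.31% of the genes tested were, and 4 were lower, where 6.38% were. The all-gene median moved from 0.00 to -0.29 in WT and to -0.19 in Irg1-/- cells when library totals were used.

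Myc and Egr2 had the largest falls. Myc was at 3.35, 2.96 and 3.12 CPM in unstimulated WT cells and at 0.243, 0.357 and 1.15 CPM after LPS 24h, which were 2 to 12 reads per library. The Irg1-/- cultures went from 7.32, 9.99 and 5.51 CPM to 0.609, 0.491 and 0.297 CPM. Neither genotype had an overlap, and the unstimulated Irg1-/- cultures were all above the WT ones. The fall was 5.25-fold in WT (log2 -2.39 ± 0.63, adjusted p = 0.00692 by edgeR) and 16.2-fold in Irg1-/- cells (-4.01 ± 0.65, adjusted p = 2.62e-05 by edgeR). Fitted to the compared groups alone, the WT value of -2.41 had an adjusted p of 0.0601.

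Egr2 went from 11.9, 17.9 and 12.6 CPM to 1.58, 1.88 and 0.191 CPM in WT cells, and from 13.9, 6.79 and 7.23 CPM to 0.609, 0.841 and 0 CPM in Irg1-/- cells. All LPS 24h cultures lay below all unstimulated ones, and the last of each genotype was the lowest. Egr2 fell 11.5-fold in WT (log2 -3.53 ± 0.75, adjusted p = 8.89e-04 by edgeR) and 20.1-fold in Irg1-/- cells (-4.33 ± 0.80, adjusted p = 1.80e-04 by edgeR). No alternative setting or left-out culture ended either call. Neutrophil granule genes (Ngp, Ltf, Camp, with Ly6g, Mpo and Elane) were summed at 66.3 to 125 CPM in unstimulated cells of both genotypes and at 1.62 to 8.52 CPM after LPS 24h, and the fibroblast genes had medians of 304 (WT) and 289 (Irg1-/-) CPM unstimulated and 194 and 148 CPM after LPS 24h. The neutrophil-defining gene Ly6g was at most at 1.66 CPM in any library. Their part in the fall of Myc and Egr2 was not tested. In these bulk samples, fewer cells of a type and less RNA per cell cannot be told apart.

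Egr1 was at 1.22, 1.70 and 1.62 CPM after LPS 24h in WT cells and at 1.35, 0.771 and 0.934 CPM in Irg1-/- cells, below all unstimulated cultures of the same genotype. Its fall in Irg1-/- cells was 7.47-fold (log2 -2.90 ± 0.44, adjusted p = 1.16e-05 by edgeR) and was called under every alternative run. In WT cells the fall of 2.58-fold (-1.37 ± 0.43, adjusted p = 0.0268 by edgeR) was less firm: without the unstimulated culture 1 it was -1.04 (adjusted p = 0.162), and without the LPS 24h cultures 1 or 2 it was -1.25 (0.0878) or -1.47 (0.0557). With the library pool as a term the WT value was -1.23 (adjusted p = 0.0953 by edgeR), unfiltered -1.37 (0.0757), and fitted to the compared groups alone -1.39 (0.155).

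Among the members that were higher, Ier3 was at 116.1, 83.1 and 36.2 CPM after LPS 24h in WT cells and at 102, 123 and 63.1 CPM in Irg1-/- cells. All 6 cultures were above the unstimulated ones, with the third WT culture nearest to them. Ier3 was 2.71-fold higher in WT (log2 1.44 ± 0.37, adjusted p = 0.00531 by edgeR) and 3.42-fold higher in Irg1-/- cells (1.77 ± 0.37, adjusted p = 8.22e-04 by edgeR). With the pool as a term these were 0.73 (adjusted p = 0.215 by edgeR) and 0.86 (adjusted p = 0.246), and without the WT LPS 24h culture 1 the WT value was 1.03 (adjusted p = 0.0594). No LPS-treated Irg1-/- culture shared a pool with an unstimulated one. The Irg1-/- value therefore takes the pool effect from WT cultures and assumes it equal in both genotypes. The same holds for every pool-term value of LPS-treated against unstimulated Irg1-/- cells. Junb, at 132.9, 145.0 and 191 CPM after LPS 24h, was 2.64-fold higher in WT (log2 1.40 ± 0.29, adjusted p = 6.61e-04 by edgeR), with no overlap. The Irg1-/- Junb cultures, at 85.7, 104.8 and 60.2 CPM, overlapped with the unstimulated ones (0.21 ± 0.29, adjusted p = 0.713 by edgeR).

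Jund, the Jun family member often high in resting cells, was at 123, 213 and 943 CPM in the WT LPS 24h cultures and at 159.8, 154.8 and 141.2 CPM in the unstimulated ones. Culture 3, the library that stood apart, lay far above every other culture here. The log2 fold change of 1.49 ± 0.47 (adjusted p = 0.0260 by edgeR) was 0.10 (adjusted p = 0.927) without culture 3. Of 6 fits that left out 1 culture 2 kept the call, and leaving out the unstimulated culture 1, 2 or 3 gave 1.52, 1.51 and 1.44 with adjusted p-values of 0.0784, 0.0783 and 0.0962. The call was also lost with the replicate block (1.27, adjusted p = 0.0550 by edgeR), library totals (1.14, 0.0750) and the compared groups alone (1.47, 0.102). The same library held the highest Fos level of any culture, at 155 CPM beside 28.6 and 74.9 CPM, and the highest Jun level, at 491 CPM beside 196 and 312 CPM. Jund overlaps Gm11175 on the other strand, so its reads too are uncertain with an unstated strand setting. Irg1-/- Jund was at 72.8, 85.0 and 174.8 CPM after LPS 24h and overlapped with the unstimulated level. The Irg1-/- culture 3 was likewise the highest of its group in Jund, and in Fos, at 64.8 CPM beside 18.7 and 19.2 CPM.

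**Figure D3:**
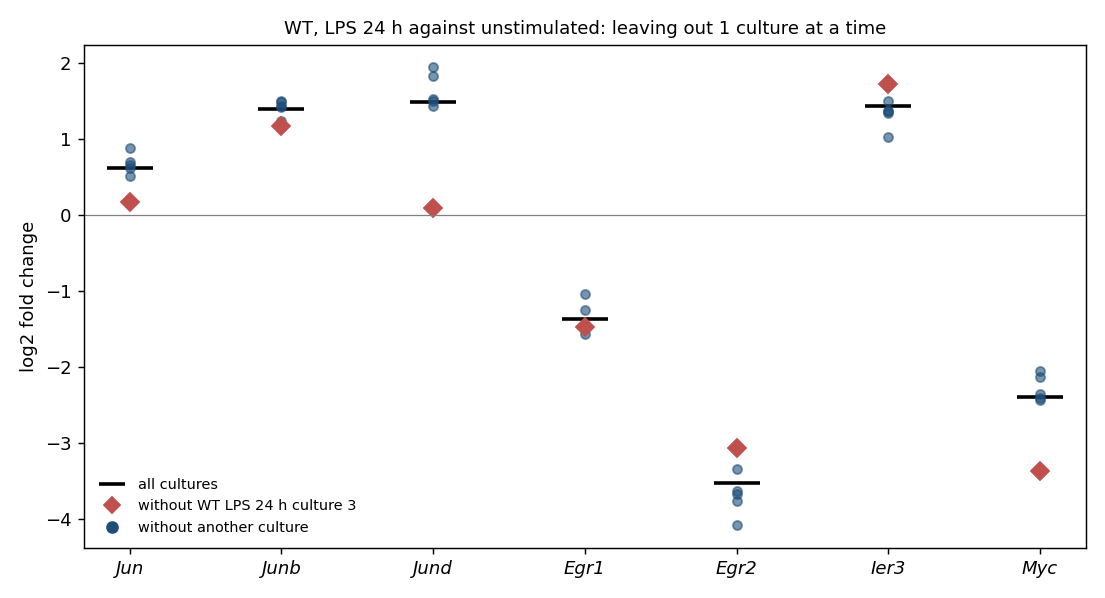
Log2 fold change of LPS 24h against unstimulated WT cells (y axis) for 7 genes (x axis), with all cultures (bar), without the third LPS 24h culture (diamond) and without each other culture (circles). Jund falls to 0.10 without that culture, and the other called genes keep their direction.

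Fosl1, which encodes Fra-1, was low throughout and was called lower in Irg1-/- cells after LPS 24h. It went from 8.57, 2.45 and 4.01 CPM to 1.08, 1.33 and 0.255 CPM, without overlap (log2 -2.51 ± 0.77, adjusted p = 0.0240 by edgeR). Left out in turn, the unstimulated culture 1 and the LPS 24h cultures 1 and 3 gave -1.94, -2.68 and -2.04 with adjusted p-values of 0.134, 0.0601 and 0.142, and the pool term gave -2.42 (0.152). Fosl1 lies over part of Ccdc85b on the other strand, and its reads are uncertain in the same way.

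Restimulation was then compared with LPS 24h. Egr1 rose in both genotypes by more than any other member, and Fosl2 and Junb rose in Irg1-/- cells. In WT cells 1 of 10 members was higher, where 2.46% of the genes tested were, and 1 was lower, where 1.53% were. In Irg1-/- cells 3 of 10 were higher, where 3.44% of the genes tested were and 1.7% were lower. The LPS 24h cultures of this contrast are those of the one against unstimulated cells, so the values of both comparisons are tied.

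Egr1 was at 15.2, 7.99 and 12.4 CPM in the tolerized WT cultures and at 11.02, 15.8 and 11.8 CPM in the Irg1-/- ones, all far above the LPS 24h cultures. It rose 7.74-fold in WT (log2 2.95 ± 0.44, adjusted p = 6.49e-05 by edgeR) and 12.6-fold in Irg1-/- cells (3.65 ± 0.45, adjusted p = 1.04e-06 by edgeR). Within pools 1, 2 and 4 the WT log2 differences were 3.47, 2.12 and 2.80, each from 1 culture against 1, and within pool 1 the Irg1-/- difference was 3.57. Each call held under all 8 alternatives and in the 6 fits that left out 1 culture. Egr1 in tolerized cells stood at 7.99 to 15.8 CPM, beside 8.57 to 11.6 CPM after LPS 3h alone.

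In Irg1-/- cells Junb rose from 85.7, 104.8 and 60.2 CPM to 251, 280.3 and 214 CPM on restimulation, and Fosl2 from 24.3, 29.7 and 17.4 CPM to 58.1, 63.7 and 47.7 CPM. Neither gene overlapped between the groups. Junb rose 2.97-fold (log2 1.57 ± 0.29, adjusted p = 6.19e-04 by edgeR) and Fosl2 2.38-fold (1.25 ± 0.29, adjusted p = 0.00563 by edgeR). In WT cells the tolerized cultures were at 177.9, 274 and 137.8 CPM of Junb and at 38.5, 46.7 and 28.3 CPM of Fosl2. WT Junb overlapped with the LPS 24h level (0.33 ± 0.29, adjusted p = 0.633 by edgeR), and WT Fosl2 did not overlap but did not pass (0.84 ± 0.29, adjusted p = 0.0988 by edgeR, 0.0265 by DESeq2's Wald test). The difference between genotypes in this response was 1.24 ± 0.41 for Junb (adjusted p = 0.305 by edgeR) and 0.41 ± 0.40 for Fosl2 (adjusted p = 0.889 by edgeR).

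Myc and Egr2 lay above the LPS 24h level in every tolerized culture of both genotypes without passing the test. Myc was at 2.08, 2.83 and 2.42 CPM in tolerized WT cells and at 1.75, 1.67 and 1.37 CPM in Irg1-/- cells (log2 2.03 ± 0.63, adjusted p = 0.0647, and 1.78 ± 0.62, adjusted p = 0.103 by edgeR). By DESeq2's Wald test both passed (adjusted p = 0.0152 and 0.0253), and without the WT LPS 24h culture 3 the WT value was 3.01 (adjusted p = 0.0205 by edgeR). Egr2 was at 4.04, 2.53 and 6.62 CPM in tolerized WT cells and 2.12, 2.76 and 1.97 CPM in Irg1-/- cells (1.86 ± 0.73, adjusted p = 0.174, and 2.31 ± 0.78, adjusted p = 0.0874 by edgeR). Egr2 passed without a filter in both genotypes (adjusted p = 0.0407 and 0.00772 by edgeR) and by DESeq2's Wald test in Irg1-/- cells (0.0243, beside 0.0850 in WT).

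Jund was called lower in restimulated WT cells, at 113.1, 176.5 and 103.2 CPM (log2 -1.70 ± 0.47, adjusted p = 0.0342 by edgeR). The groups overlapped, and the value was -0.32 (adjusted p = 0.802 by edgeR) without the LPS 24h culture 3. Within pools 1, 2 and 4 it was -0.13, -0.27 and -3.19. Without the tolerized culture 1 or 3 it was -1.62 (adjusted p = 0.122 by edgeR) or -1.58 (0.145). Restimulated Irg1-/- cells had 160.0, 204 and 354 CPM of Jund, beside 72.8 to 174.8 CPM in LPS 24h cells (1.11 ± 0.47, adjusted p = 0.210 by edgeR).

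Tolerized cells were also compared with LPS 3h cells, which met LPS for the first time. Junb, Ier3 and Fosl2 were lower in tolerized WT cells, and Junb and Egr2 were lower in tolerized Irg1-/- cells. That made 3 of 10 members in WT, where 13.1% of the genes tested were lower and 12.4% higher, and 2 of 10 in Irg1-/- cells, where 14.1% were lower and 13.1% higher. Scaled by library totals, the all-gene median moved from 0.13 to 0.59 in WT and from 0.12 to 0.65 in Irg1-/- cells, and the share of higher calls from 48.6% to 76.2% and from 48.1% to 78.0%. The summed neutrophil genes went from a median of 99.9 CPM after LPS 3h to 4.15 CPM in tolerized WT cells and from 83.0 to 3.99 CPM in Irg1-/- cells, and the fibroblast genes from 382 to 117 CPM and from 311 to 108 CPM. Their part in these differences was not tested.

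Junb was 3.27-fold lower in tolerized WT cells (log2 -1.71 ± 0.29, adjusted p = 5.42e-05 by edgeR) and 2.67-fold lower in tolerized Irg1-/- cells (-1.42 ± 0.29, adjusted p = 4.29e-04 by edgeR), with no overlap in either. Within pools 1, 2 and 4 the WT differences were -1.80, -1.24 and -2.26, and with the pool as a term the Irg1-/- value was -1.14 (adjusted p = 0.0759 by edgeR). Relative to the all-gene median Junb stood at -1.84 in WT, and at -1.83 with library totals. All its tolerized cultures lay above the unstimulated ones in both genotypes.

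Ier3 was at 57.8, 116.0 and 45.1 CPM in tolerized WT cells and at 128.4, 139.1 and 112.1 CPM in Irg1-/- cells. All were below the LPS 3h cultures of the same genotype. The WT difference was -1.59 ± 0.37 (3.02-fold lower, adjusted p = 0.00155 by edgeR), and the Irg1-/- difference of -0.71 ± 0.36 did not pass (adjusted p = 0.142 by edgeR, 0.0270 fitted to the compared groups alone). Between genotypes this response differed by 0.88 ± 0.51 (adjusted p = 0.764 by edgeR), so it was not shown to depend on Irg1.

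Fosl2 in tolerized WT cells was 1.70-fold below LPS 3h (log2 -0.76 ± 0.28, adjusted p = 0.0473 by edgeR), close to the threshold. It was -0.60 (adjusted p = 0.166 by edgeR) and -0.85 (0.0548) without the LPS 3h culture 1 or 3, and -0.83 (0.0708) and -0.65 (0.127) without the tolerized culture 1 or 3. Library totals gave -0.30 (0.441), no filter -0.76 (0.118) and the compared groups alone -0.80 (0.105). The Irg1-/- Fosl2 difference was -0.35 ± 0.28 (adjusted p = 0.375 by edgeR), and it turned to 0.19 with library totals.

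Egr2 in Irg1-/- cells went from 24.3, 8.26 and 2.99 CPM after LPS 3h to 2.12, 2.76 and 1.97 CPM in tolerized cells, a 5.23-fold fall without overlap (log2 -2.39 ± 0.70, adjusted p = 0.0113 by edgeR). The first LPS 3h culture held the highest level, and it was also the highest of its group in Fos, at 93.2 CPM beside 36.8 and 22.0 CPM. Without it the Egr2 value was -1.33 (adjusted p = 0.188 by edgeR). In WT cells the Egr2 groups overlapped (0.03 ± 0.69, adjusted p = 0.981 by edgeR).

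Finally, Irg1-/- cells were compared with WT cells under each treatment, to see whether loss of Irg1 moved these genes. The Irg1-/- cultures were all in pool 1 after LPS 24h, in pools 2 and 3 after LPS 3h and in pools 1 and 2 when tolerized. WT cultures of each LPS treatment were in pools 1, 2 and 4. Genotype and pool therefore cannot be fully told apart under LPS, nor in the tests of the responses below. No member passed in unstimulated, LPS 3h or tolerized cells by edgeR or by DESeq2, where 0.0421%, 0.00842% and 0.118% of the genes tested passed by edgeR. At an unadjusted p under 0.05 there were 2, 1 and 2 of the 10 members, where 5.2%, 5.84% and 7.88% of the genes tested were, and 4 of 10 in LPS 24h cells, where 10.1% were. In LPS 24h cells 1 of 10 passed by edgeR, lower, where 0.497% of the genes tested were lower. That gene was Jund, at -1.94 ± 0.48 (adjusted p = 0.0491 by edgeR), with overlapping groups. Without the WT culture 3 it was -0.56 (adjusted p = 0.821 by edgeR), within pool 1 it was -0.27, and 2 of 8 alternatives kept the call. Without the Irg1-/- LPS 24h culture 1, 2 or 3 it was -1.68 (adjusted p = 0.275 by edgeR), -1.79 (0.238) or -2.44 (0.105).

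**Figure D4:**
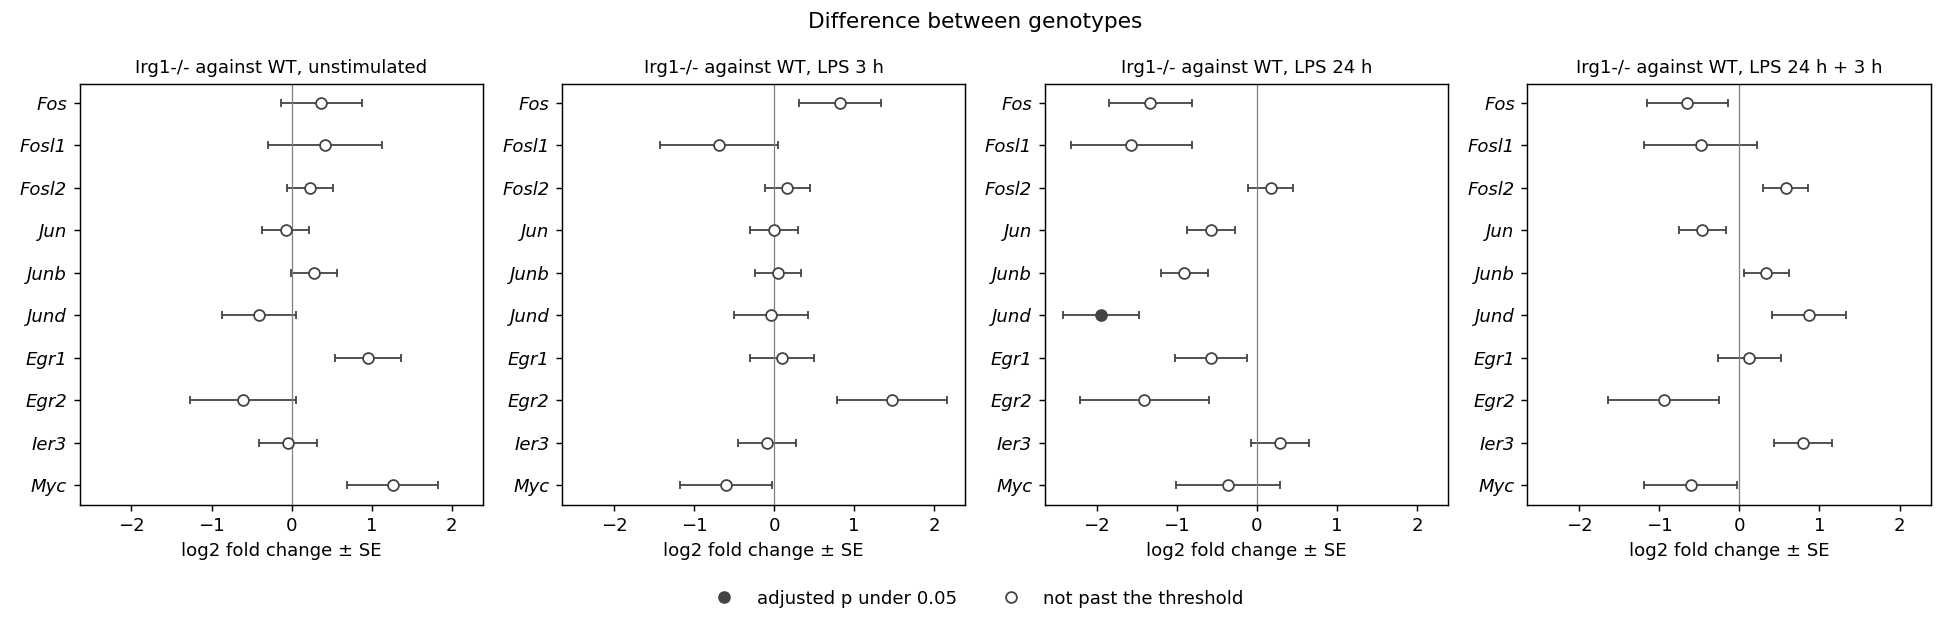
Log2 fold change of Irg1-/- against WT cells (x axis, with its standard error) for each gene (y axis) in the 4 treatments, filled where the adjusted p is under 0.05. Jund in LPS 24h cells, at -1.94, is the one filled point.

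Some members differed between the genotypes without passing. The share of all genes whose groups did not overlap was not counted. Unstimulated Myc was higher in all 3 Irg1-/- cultures (log2 1.26 ± 0.57, unadjusted p = 0.0333 and adjusted p = 0.863 by edgeR), and Egr1 was at 0.96 ± 0.41 (adjusted p = 0.837 by edgeR). Unstimulated Jund was lower in all 3 Irg1-/- cultures (-0.41 ± 0.46, unadjusted p = 0.387 by edgeR). After LPS 24h Junb was lower in all 3 Irg1-/- cultures (-0.90 ± 0.29, adjusted p = 0.177 by edgeR, 0.0416 by DESeq2's Wald test), with a pool 1 difference of -0.71. Fos was at -1.33 ± 0.51 (adjusted p = 0.316 by edgeR) and at -0.55 without the WT culture 3. In tolerized cells Fosl2 was higher in all 3 Irg1-/- cultures (0.58 ± 0.28, adjusted p = 0.633 by edgeR), and Ier3 was at 0.79 ± 0.36 (adjusted p = 0.573 by edgeR). Tolerized Myc was lower in all 3 Irg1-/- cultures (-0.61 ± 0.58, adjusted p = 0.902 by edgeR), opposite to its direction in unstimulated cells. The other unadjusted p-values under 0.05 were those of Egr2 after LPS 3h (1.47 ± 0.69) and of Fosl1 after LPS 24h (-1.57 ± 0.76).

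The responses to LPS were also tested for a difference between genotypes. By edgeR none of the 10 genes passed in any of the 4 tests, where 0.00842%, 0.21%, 0.00842% and 0.0% of the genes tested did for LPS 3h, LPS 24h, restimulation against LPS 24h and restimulation against LPS 3h. In the same order, 2, 4, 2 and 1 of the 10 had an unadjusted p under 0.05, where 5.68%, 8.14%, 8.66% and 7.23% of the genes tested had one. DESeq2's Wald test called 1 member in the third of these, Jund, and 0 in the others. That Jund difference was 2.81 ± 0.66 (adjusted p = 0.0984 by edgeR, 0.0138 by DESeq2), and without the WT LPS 24h culture 1 or 2 it passed (3.31, adjusted p = 0.0112, and 3.19, adjusted p = 0.0490 by edgeR). Without the WT LPS 24h culture 3 it was 1.46 (adjusted p = 0.597 by edgeR).

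The levels of the members were also compared with each other, as group means of log2 CPM over the 8 groups. Junb correlated with Fosl2 and with Ier3 at a Pearson r of 0.90 each, Egr2 with Myc at 0.88, and Jun with Fosl2 at -0.91. These are descriptions over 8 means that share their libraries and normalization. Across the genes tested, the closest patterns to Junb were those of Stk40 (r = 0.996), Tnfaip3 (0.994) and Ube2e2 (0.990). For Ier3 they were Slc39a14 (0.990), Mrpl52 (0.983) and Ralb (0.983), and for Fosl2 Ppef2 (0.990), Foxp1 (0.987) and Slc4a7 (0.981). Egr1 was closest to Fam43a (0.977), Siah1a (0.963) and Il10rb (0.948), Egr2 to Lzts2 (0.963), Snrnp70 (0.962) and Pabpc4 (0.957), and Myc to Myb (0.972), Larp7 (0.967) and Emp1 (0.958). Fos was closest to Dcaf6 (0.952), Fosl1 to Rmdn2 (0.937), Jun to Abhd2 (0.981) and Jund to Kdelr1 (0.974). These genes were picked as the highest r among all genes tested, so a high r follows in part from the choice. The WT LPS 24h mean of Jund rests on culture 3, at 943 CPM beside 123 and 213 CPM.

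Other genes of the same pathways were taken from lists. These lists were chosen with earlier results of these data known, so their counts are descriptions. After LPS 3h their counts stand beside all genes tested, of which 15.8% (WT) and 17.0% (Irg1-/-) rose and 16.3% and 18.9% fell. With library totals the all-gene median was -1.10 in WT and -1.12 in Irg1-/- cells, and most called genes were lower. Falls counted under that setting stand beside this shift of all genes and are not read as results of the lists. After LPS 3h, 5 of 12 other AP-1 family genes rose in each genotype and 1 fell in WT and 2 in Irg1-/- cells; with library totals 5 still rose, and 4 and 5 fell. Maff, a small Maf protein, rose from 3.10 to 174 CPM in WT (log2 5.80 ± 0.42, adjusted p = 1.35e-12 by edgeR) and Jdp2, an AP-1 repressor, from 12.2 to 382 CPM (4.96 ± 0.77, adjusted p = 5.13e-06 by edgeR). On restimulation Maff rose again in both genotypes, to 33.3 CPM in WT and 39.8 CPM in Irg1-/- cells.

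Of the 26 other immediate early genes tested, 12 rose after LPS 3h in each genotype, while 2 fell in WT and 3 in Irg1-/- cells; with library totals 9 and 11 rose and 4 and 8 fell. Tnfaip3, an inhibitor of NF-kappaB signalling, rose from 12.5 to 1195 CPM in WT cells (log2 6.58 ± 0.51, adjusted p = 4.82e-12 by edgeR), and Zfp36l2, an RNA-decay factor, fell from 326 to 34.4 CPM (-3.24 ± 0.31, adjusted p = 4.36e-10 by edgeR). In tolerized against LPS 24h cells, 6 of the 26 rose in WT and 10 in Irg1-/- cells, where 2.46% and 3.44% of the genes tested rose. With library totals 3 rose in WT and 9 in Irg1-/- cells, and without the WT LPS 24h culture 3 the WT count was 4. Nfkbia, the inhibitor IkappaB-alpha, was among those that rose in both genotypes with TMM factors (1.73 ± 0.27 and 2.28 ± 0.28). Against LPS 3h, 10 of the 26 were lower in tolerized cells of each genotype, and 8 with library totals, where 13.1% and 14.1% of the genes tested were. After LPS 24h, 4 of the 26 were lower in Irg1-/- than in WT cells, where 0.497% of the genes tested were. They were Klf6, Dusp1, Ccn1 and Btg1, named after their values were seen, and 2 of them passed with library totals. Without the WT LPS 24h culture 3, the library that stood apart, the 4 were no longer past the threshold by edgeR, and the list median moved from -0.73 to -0.31.

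Genes upstream and downstream of the members were counted after LPS 3h as well. Of 20 MAP kinase and serum response factor genes, 7 rose in WT and 6 in Irg1-/- cells, with Mapkapk2, a kinase downstream of p38, from 63.5 to 686 CPM in WT (log2 3.43 ± 0.34, adjusted p = 1.13e-09 by edgeR). Of 10 Egr co-repressor and Myc network genes, 4 rose and 3 fell in WT, among them Mxd1, a Myc antagonist, from 11.1 to 116 CPM, and Mnt, another, from 54.5 to 4.17 CPM. Of 18 textbook Myc targets, 5 rose and 1 fell in WT and 4 rose and 2 fell in Irg1-/- cells. The largest rise was that of Ccnd2, a cyclin, from 50.2 to 1183 CPM in WT. Of 18 textbook AP-1 and Egr targets, 11 rose in WT and 12 in Irg1-/- cells, among them the protease gene Mmp13, from 18.0 to 2885 CPM, and the chemokine gene Ccl2, from 3.64 to 700 CPM. In tolerized cells 10 of these 18 were below LPS 3h in WT and 11 in Irg1-/- cells, where 13.1% and 14.1% of the genes tested were. With library totals 8 and 10 of the 18 were. These counts move with the scaling, as do those of all genes. With library totals, after LPS 3h in WT cells, the MAP kinase list had 4 higher and 7 lower, the Myc network list 2 and 4, the Myc targets 3 and 6, and the AP-1 and Egr targets 10 and 4, beside 7 and 1, 4 and 3, 5 and 1, and 11 and 0 above. The list medians turned sign in WT for the first 3 of these (to -0.51, -0.43 and -0.36) and went from 2.53 to 1.61 for the AP-1 and Egr targets. They turned to -0.60, -0.76 and -0.43 for the same 3 in Irg1-/- cells, and that of the other immediate early genes went from 0.66 to -0.27. After LPS 24h, 3 of the 18 AP-1 and Egr targets were lower in Irg1-/- than in WT cells, where 0.497% of the genes tested were. They were Ccl2, Gdf15 and Mmp12, named after their values were seen. The 3 were no longer past the threshold by edgeR without the WT culture 3 or with library totals.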

How the data were processed

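Messenger RNA of 24 BMDM cultures was read at its 3′ ends from barcoded, pooled cDNA amplified by 12 PCR cycles, without molecular identifiers, so that PCR copies were counted as reads. The authors aligned the reads with STAR to mm10 and deposited a table of raw counts per gene; the counting program, annotation and strand setting are not given in the sources used here. The 5 summary lines (with 22.1% to 33.7% of reads on no gene) were left out, and 21822 of 22165 genes were matched to GENCODE M21.

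Counts were fitted in edgeR 4.0.16 (R 4.3.3) by its quasi-likelihood test, with TMM factors, filterByExpr, 1 term per group over all 24 libraries, and Benjamini-Hochberg adjustment over 11878 genes (threshold 0.05) in 16 comparisons. Standard errors were the fold change divided by the root of F, and log2 CPM used a prior count of 2. The common biological coefficient of variation was 0.3776. DESeq2 1.42.0 and 7 other settings, and 24 fits leaving out 1 culture, were alternatives; 2 more, for the pathway lists, were added after seeing the data. Tables and plots were made with pandas 2.3.3 and matplotlib 3.10.9.

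Members and lists were chosen with earlier results of these data known. Named genes are Acod1, the 10 members, in each list at most 3 higher and 3 lower genes with the largest called changes after LPS 3h or restimulation, and the 3 genes most correlated with each member over the group means. Exceptions are named where they occur. A result that needs a withheld item is not reported here.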

Additional observations from a re-analysis of the deposited data

Results flagged for a closer look

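Myc, the growth regulator, lay on opposite sides of the unstimulated level in the genotypes after LPS 3h: every WT culture was above every unstimulated WT culture, and every Irg1-/- culture was below every unstimulated Irg1-/- culture. Neither change passed (0.67 in WT, adjusted p = 0.403, and -1.20 in Irg1-/- cells, adjusted p = 0.104 by edgeR), nor did the genotype difference of -1.86 ± 0.81 on the log2 scale (unadjusted p = 0.0277, adjusted p = 0.822 by edgeR). With library totals both were negative, at -0.26 in WT and -2.14 in Irg1-/- cells (adjusted p = 0.00322 by edgeR), and the genotype difference was -1.87. With the library pool as a term the Irg1-/- value was -0.02 (adjusted p = 1 by edgeR) and the genotype difference -1.16. All LPS-treated Irg1-/- cultures were in other library pools than the unstimulated ones, and pool and LPS cannot be told apart there.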

How the results depend on the processing

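With library totals in place of TMM factors, the log2 fold change of Myc after LPS 3h in WT cells turned to -0.26 (adjusted p = 0.705 by edgeR), and that of Fosl2 in tolerized against LPS 3h Irg1-/- cells to 0.19 (0.633). Under the same setting 6 rather than 3 members passed after LPS 3h in Irg1-/- cells. Fitted to the compared groups alone, 3 of the 6 members called after LPS 24h in WT cells passed, and 1 of 2 in tolerized against LPS 24h WT cells. The latter count was 4 with DESeq2's Wald test and 4 without a filter, and 1 to 3 with a culture left out (1 without the tolerized culture 1 or 3). In Irg1-/- cells, 3 rather than 5 members passed after LPS 24h with the pool as a term. There 5 rather than 3 passed on restimulation against LPS 24h by DESeq2 or without a filter, and 4 rather than 2 against LPS 3h without a filter or in the compared groups alone, with 1 to 2 when a culture was left out (1 without the LPS 3h culture 1). The 1 member lower in Irg1-/- LPS 24h cells became 0 with size factors, library totals, a mean of at least 10 counts, the compared groups alone, the replicate block or the pool, became 2 by DESeq2 or without a filter, and was 0 to 1 with a culture left out. The genotype difference on restimulation against LPS 24h went from 0 to 1 by DESeq2 or without a filter, and was 0 to 1 with a culture left out. The causes were not tested.

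The replicate block, which uses the culture numbers, ended the calls of Jund after LPS 24h in WT cells (1.27, adjusted p = 0.0550 by edgeR), in tolerized against LPS 24h WT cells (leaving 1 of 2 members) and between genotypes in LPS 24h cells (leaving 0 of 1), and brought Egr2 after LPS 3h in WT cells past the threshold (-1.74, adjusted p = 0.0437 by edgeR). Samples of the same number correlated in their deviations at -0.10 to 0.34, were over 0.1 in all 3 pairs of 0 of 12 comparisons, and each correlated best with its own number in 1 of them, so the numbers were not taken as pairs. The number 3 cultures of LPS 24h correlated at 0.29 between genotypes. With the tolerized number 3 culture they correlated at 0.26 in WT and 0.34 in Irg1-/- cells. Number 3 of WT LPS 3h and unstimulated cells were at -0.09. An effect shared by number 3 was not tested.

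Over all genes, library totals moved the number called from 3805 to 6856 after LPS 3h in WT and from 4260 to 6883 in Irg1-/- cells, and the pool term moved the latter to 2361. The compared groups alone gave 109 and DESeq2 766 against 474 on restimulation over LPS 24h in WT, and the compared groups alone gave 1080 against 611 in Irg1-/- cells. In tolerized against LPS 3h Irg1-/- cells, 3233 became 1407 with the pool term and 4886 with totals. Between genotypes the counts of 5, 1, 71 and 14 (unstimulated, LPS 3h, LPS 24h, tolerized) reached 39, 32, 246 and 133 without a filter, and 0, 1, 3 and 4 in the compared groups alone. The genotype differences of 1, 25, 1 and 0 genes reached 26, 112, 170 and 68 without a filter. Low read numbers limit Myc, Egr1, Egr2 and Fosl1 after LPS 24h.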
